A study of Mus musculus with 6 samples.

Results

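The genes described here are 33 genes of adipogenic commitment and lipid storage, chosen by symbol from the table of gene counts. All 33 symbols matched a gene in the table, which held 27179 genes. They comprise 8 transcription factors, the surface molecule *Icam1*, 5 genes of fatty acid uptake and binding, 6 of fatty acid synthesis and activation, 4 of triglyceride synthesis and lipolysis, 4 of the lipid droplet coat and 5 secreted or other products of mature adipocytes. Bulk RNA-seq was performed on CD34hi and CD34lo fibroblasts sorted from the mammary glands of pubertal FVB/N mice at 6 weeks of age. The study's methods give the strain as FVB/NJ. Both populations carried the same sort gates (negative for the lineage markers CD31, CD45 and TER-119, negative for the epithelial marker CD24, positive for the fibroblast receptor Pdgfrα) and differed only in the amount of the surface sialomucin CD34. The labels name no treatment, and each library came from a pool of 2 mice. Each of 3 pools gave 1 CD34hi and 1 CD34lo library, which made 6 libraries, 3 of each population, and a pool hides the spread between its mice.

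Adipocytes arise from fibroblast-like progenitors. *Zfp423*, *Ebf1* and *Ebf2* encode factors found in committed progenitors, *Cebpb* and *Cebpd* act early after an adipogenic stimulus, and PPARγ (*Pparg*) with C/EBPα (*Cebpa*) then drive the fat storage programme, in which each keeps the other expressed. Stored fat depends on the uptake of fatty acids, their esterification to triglyceride and a lipid droplet coated by perilipins, while adipokines such as adiponectin and leptin mark the mature adipocyte. In the mammary gland, adipocytes fill most of the stroma through which the ducts grow during puberty.

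The C/EBP factors bind a palindromic motif, and upstream sequences of the genes were searched for it because *Pparg*, *Cebpa* and *Plin1* were all higher in CD34lo fibroblasts. Of the 33 genes, 22 had an entry in the RefSeq promoter table (GRCm38.p6), with 31 start sites in all, and the 250 bases before each start were read. The letters TTGCNNAA, searched on both strands, were present before 5 of the 31 starts (those of *Cidec*, *Lep*, *Plin1*, *Pparg* and *Zfp423*), and 9.56% of all 32851 windows of the same length held them. Shown 5′ to 3′ on the strand of the gene, with each match in capitals, are 3 of these windows, for 2 genes that were higher in CD34lo fibroblasts and 1 that was higher in CD34hi fibroblasts:
Pparg, chr6:115421816-115422065, plus strand: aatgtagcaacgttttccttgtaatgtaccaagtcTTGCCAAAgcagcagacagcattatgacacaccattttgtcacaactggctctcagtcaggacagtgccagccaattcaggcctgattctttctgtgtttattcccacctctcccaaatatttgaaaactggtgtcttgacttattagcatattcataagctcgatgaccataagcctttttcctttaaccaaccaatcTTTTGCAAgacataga
Plin1, chr7:79732777-79733026, minus strand: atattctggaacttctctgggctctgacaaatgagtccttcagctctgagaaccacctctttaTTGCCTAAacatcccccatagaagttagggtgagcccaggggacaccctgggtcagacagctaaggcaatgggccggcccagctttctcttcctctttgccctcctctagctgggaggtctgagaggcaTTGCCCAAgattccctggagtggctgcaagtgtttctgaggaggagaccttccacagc
Zfp423, chr8:87959596-87959845, minus strand: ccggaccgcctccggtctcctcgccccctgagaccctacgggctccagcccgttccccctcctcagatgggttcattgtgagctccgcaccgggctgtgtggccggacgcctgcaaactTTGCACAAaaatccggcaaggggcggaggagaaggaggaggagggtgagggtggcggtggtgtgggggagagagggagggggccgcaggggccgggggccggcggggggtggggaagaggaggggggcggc
The *Pparg* window lies before an internal start, within a gene that spans chr6:115361221-115490401, whereas the *Plin1* and *Zfp423* windows lie directly before the first base of their gene. *Pparg* and *Plin1* each held 2 matches and *Zfp423* held 1, so the same letters stood before genes that differed in opposite directions. *Cebpa*, also among the 22 genes read, held no match to these letters. The direct repeat bound by PPARγ and its partner RXR, searched on both strands, was found before 0 of the 31 starts, with 0.338% of all windows holding it. A sterol response motif (TCACNCCAC, both strands) was found before *Acsl1* only, with 1.05% of all windows holding it. These matches are descriptions of letters, and counts per gene do not tell which start was used.

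Depth ranged from 28764779 to 52402410 counts per library, and 3 counts, taken as the smallest amount a library could show, corresponded to 0.0572 to 0.104 counts per 1000000 counts (CPM) of the library total before TMM scaling, a floor that covers counting error only. CPM of genes are given after TMM scaling. Libraries of the same population differed by more than sampling noise (the lowest ratio of chi-square to its degrees of freedom was 23.7). The fibroblast markers *Dcn*, *Lum*, *Pdgfra*, *Col1a2* and *Igfbp5* together made up 28386 to 36429 CPM in each of the 6 libraries, although *Igfbp5* was higher in CD34hi fibroblasts (log2 fold change 3.45) and *Lum* (-1.28), *Pdgfra* (-0.74) and *Col1a2* (-0.69) were higher in CD34lo fibroblasts. *Cd34*, which encodes the sorted antigen, averaged 2571 CPM in CD34hi and 634 CPM in CD34lo libraries, a log2 fold change of 2.02. Log2 fold changes are given as CD34hi minus CD34lo from edgeR's quasi-likelihood test on 15219 genes, with Benjamini-Hochberg adjusted p-values and a threshold of 0.05. The standard error (SE) of the log2 fold change is given in parentheses.

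Of the 33 genes, 29 had enough counts to be tested. Expression of 11 was higher in CD34lo fibroblasts (37.9% of those tested, compared with 18.7% of all genes tested), and 3 were higher in CD34hi fibroblasts (10.3%, compared with 16.9% of all genes tested). The 11 were *Pparg*, *Cebpa*, *Icam1*, *Lpl*, *Cd36*, *Fabp4*, *Apoe*, *Plin1*, *Plin2*, *Plin4* and *Car3*, and the 3 were *Zfp423*, *Ebf1* and *Ebf2*. The remaining 15 genes tested did not pass the threshold, and these included all 10 genes of fatty acid synthesis and activation and of triglyceride synthesis and lipolysis. In either direction, 14 of the 29 passed, compared with 35.6% of all genes tested. The median log2 fold change of the 29 was -0.29, and that of all genes tested was -0.0064. For 13 of the 29 every CD34lo library was above every CD34hi library, and for 3 the reverse held, where 25.3% and 24.8% of all genes tested were separated in these ways and 50.1% in either way. *Plin1* passed the filter on low counts through its CD34lo libraries alone, so its count among the called genes was partly fixed by that filter. The 33 genes together took 3636 to 3916 CPM in the CD34hi libraries and 4659 to 6245 CPM in the CD34lo libraries. In sorted bulk samples, fewer cells expressing a gene and less RNA per cell cannot be told apart.

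**Figure D1:**
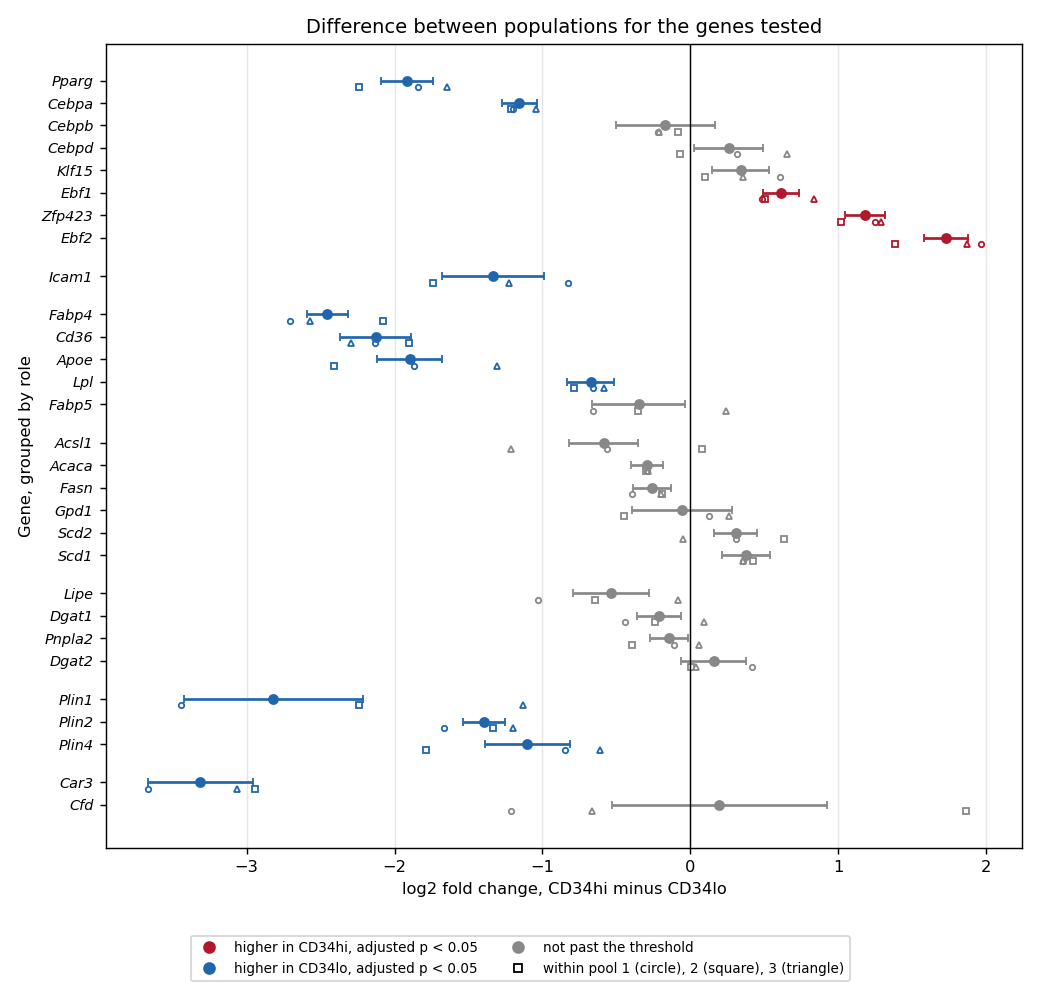
Log2 fold change (CD34hi minus CD34lo, horizontal axis) of the 29 genes tested, grouped by role on the vertical axis. Filled circles with bars are the edgeR estimate and the SE derived from its F statistic, and small open symbols are the differences within pools 1, 2 and 3. The progenitor factors *Zfp423*, *Ebf1* and *Ebf2* lie right of zero in every pool, and *Pparg*, *Cebpa*, *Fabp4*, *Cd36*, *Apoe*, *Plin2* and *Car3* lie left of -1 in every pool.

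Among the transcription factors, the progenitor factors *Zfp423*, *Ebf1* and *Ebf2* were higher in CD34hi fibroblasts, whereas *Pparg* and *Cebpa* were higher in CD34lo fibroblasts. *Zfp423*, a zinc finger factor that marks preadipocytes, was measured at 38.7, 41.6 and 38.4 CPM in CD34hi pools 1, 2 and 3 and at 16.2, 20.5 and 15.7 CPM in the CD34lo pools. Every CD34hi library was above every CD34lo library, with a log2 fold change of 1.18 (SE 0.14, adjusted p = 2.21e-04). *Ebf2*, which encodes a factor of adipocyte progenitors, was at 274, 259 and 296 CPM in CD34hi and at 70.1, 98.9 and 80.9 CPM in CD34lo fibroblasts. The populations were well separated, and its log2 fold change of 1.73 (SE 0.15, adjusted p = 4.98e-05) was the highest among the 29 genes. Its relative *Ebf1* was at 143, 129 and 159 CPM in CD34hi and at 103, 90.6 and 88.9 CPM in CD34lo fibroblasts. The groups did not overlap, and the difference was smaller, with a log2 fold change of 0.61 (SE 0.12, adjusted p = 0.00483). Per length, in counts per kilobase and per 1000000 counts (RPKM), the level of *Ebf1* was 0.962 to 1.04 times that of *Ebf2* in CD34hi libraries and 1.77 to 2.83 times in CD34lo libraries.

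*Pparg*, the nuclear receptor that directs adipocyte differentiation, was at 11.6, 8.28 and 9.64 CPM in CD34hi and at 41.6, 39.4 and 30.3 CPM in CD34lo fibroblasts. Each CD34lo library stood well above the highest CD34hi library, and the expression was 3.77-fold higher in CD34lo fibroblasts (log2 fold change -1.91, SE 0.18, adjusted p = 6.52e-05). *Cebpa* (chr7:35119293-35121928, plus strand) was at 24.5, 24.0 and 22.6 CPM in CD34hi and at 56.3, 55.7 and 46.5 CPM in CD34lo fibroblasts. The CD34hi libraries were nearly equal, all were below the CD34lo libraries, and the log2 fold change was -1.16 (SE 0.12, adjusted p = 1.20e-04). Per length, *Cebpa* was at 1.59 to 2.19 times the level of *Pparg* in CD34hi libraries and at 1.02 to 1.16 times in CD34lo libraries, so the pair stood closer to each other in CD34lo fibroblasts.

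The early factors did not pass the threshold. *Cebpb*, a leucine zipper factor induced at the onset of adipogenesis, was at 357, 291 and 161 CPM in CD34hi and at 415, 308 and 187 CPM in CD34lo fibroblasts. Within each of the 3 pools the CD34lo library was the higher one, but the pools differed more than the populations did and the groups overlapped (log2 fold change -0.17, SE 0.34, adjusted p = 0.731). *Cebpd*, its partner in early adipogenesis, was at 854, 735 and 641 CPM in CD34hi and at 684, 771 and 406 CPM in CD34lo fibroblasts, and the direction differed between pools (log2 fold change 0.26, SE 0.23, adjusted p = 0.425). The direction for *Cebpb* turned when CD34hi library 3 (0.10) or CD34lo library 1 (0.15) was left out, which leaves that pool unpaired. With a whole pool left out, the log2 fold change of *Cebpb* stayed below zero (-0.10, -0.21 and -0.15 without pools 1, 2 and 3). With the pool as a block it was -0.17 (adjusted p = 0.287). *Cebpd* shares 562 exonic bases with *Spidr* on the opposite strand, where reads from a kit that does not mark strand cannot be told apart, and it held 165043 counts in all against 6537 for *Spidr*. *Klf15*, a Krüppel-like factor that rises during adipocyte differentiation, was at 8.05 to 9.24 CPM in CD34hi and at 5.27 to 8.27 CPM in CD34lo fibroblasts. Its level was higher in CD34hi in all 3 pools, but its log2 fold change of 0.34 did not pass the threshold (adjusted p = 0.201).

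**Figure D2:**
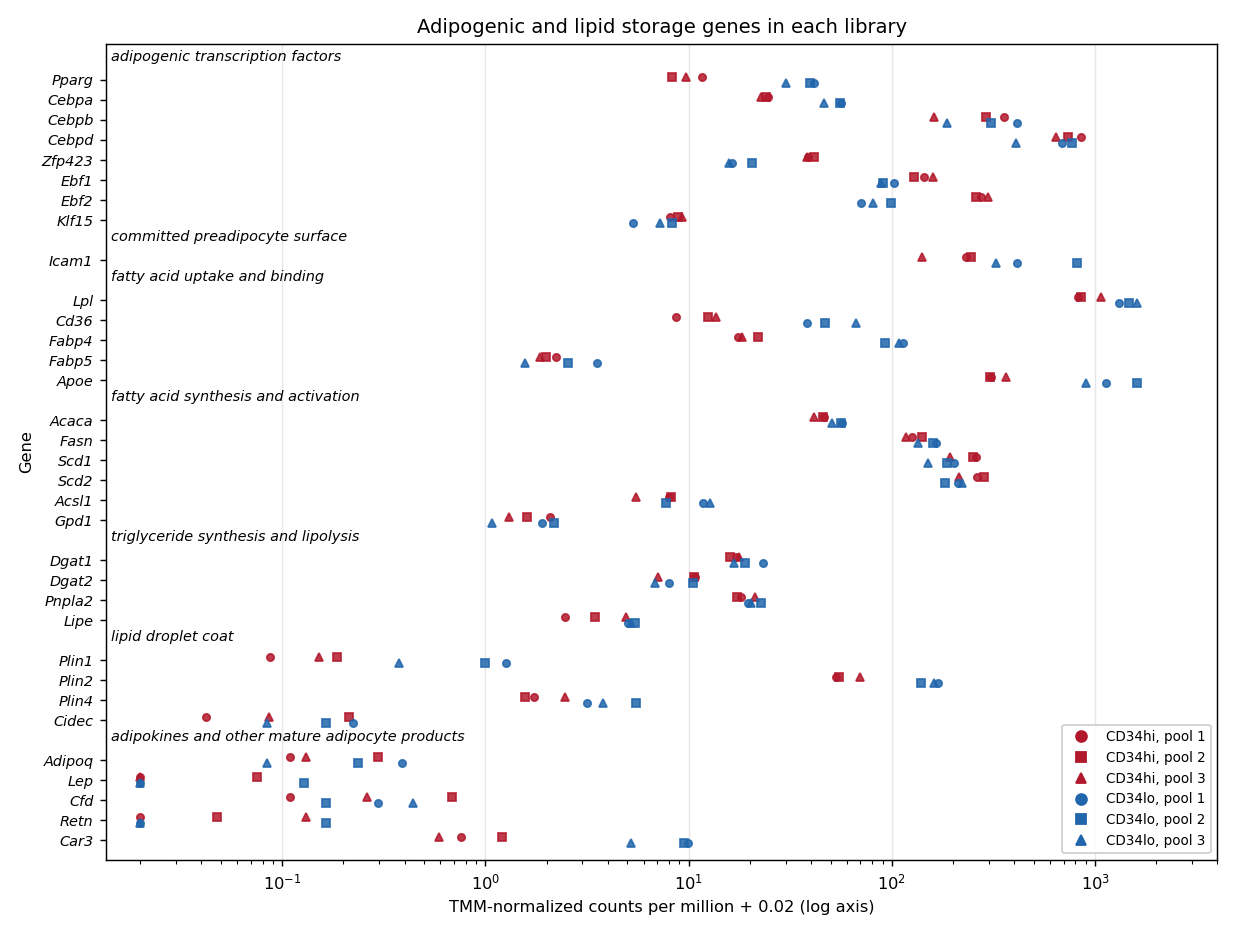
Normalized level of each of the 33 genes (CPM plus 0.02, logarithmic horizontal axis) in the 3 CD34hi libraries (red) and the 3 CD34lo libraries (blue), with 1 symbol per pool and the genes grouped by role on the vertical axis. Levels span from 0 counts for *Lep* and *Retn* in some libraries to 1613 CPM for *Apoe* in CD34lo pool 2, and the populations are apart for *Pparg*, *Fabp4* and *Ebf2* and overlap for *Cebpb*, *Scd2* and *Dgat2*.

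*Icam1* encodes an adhesion molecule used to sort committed preadipocytes, and its messenger RNA was at 232, 244 and 140 CPM in CD34hi and at 413, 815 and 327 CPM in CD34lo fibroblasts. All CD34lo libraries were above all CD34hi libraries, with CD34lo pool 2 far above the rest, and the log2 fold change was -1.34 (SE 0.35, adjusted p = 0.0162). Without that library the log2 fold change was -0.85 (adjusted p = 0.0317).

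Genes of fatty acid uptake and binding were higher in CD34lo fibroblasts for 4 of 5, by 1.59-fold for *Lpl* to 5.48-fold for *Fabp4*. Of all genes tested, 18.7% were higher in CD34lo fibroblasts. *Fabp4*, the adipocyte fatty acid binding protein and a target of PPARγ (chr3:10204342-10208576, minus strand), was at 17.4, 22.0 and 18.2 CPM in CD34hi and at 114, 92.9 and 109 CPM in CD34lo fibroblasts. The populations were far apart relative to the spread within each, and the log2 fold change was -2.46 (SE 0.14, adjusted p = 6.71e-06). *Cd36*, which encodes a fatty acid translocase, was at 8.65, 12.4 and 13.6 CPM in CD34hi and at 38.2, 46.8 and 66.8 CPM in CD34lo fibroblasts. In both populations pool 3 was highest and pool 1 lowest, while the groups did not overlap (log2 fold change -2.13, SE 0.24, adjusted p = 2.12e-04). *Apoe*, the apolipoprotein that carries lipid between cells, was at 309, 304 and 364 CPM in CD34hi and at 1127, 1613 and 903 CPM in CD34lo fibroblasts. Every CD34lo library was higher, and the log2 fold change was -1.90 (SE 0.22, adjusted p = 2.34e-04).

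*Lpl* (chr8:68880555-68906932, plus strand) encodes the lipase that releases fatty acids from circulating lipoproteins, and it was abundant in both populations. It was at 828, 853 and 1067 CPM in CD34hi and at 1307, 1473 and 1602 CPM in CD34lo fibroblasts. The groups did not overlap, but the log2 fold change was smaller than for the other uptake genes that passed, at -0.67 (SE 0.16, adjusted p = 0.01). The call for *Lpl* was lost without pool 1 (adjusted p = 0.0772) or pool 2 (adjusted p = 0.0894), and also without CD34hi library 1 (adjusted p = 0.0563) or 2 (adjusted p = 0.0583). *Fabp5*, the epidermal relative of *Fabp4*, was low, at 1.83 to 2.21 CPM in CD34hi and 1.54 to 3.52 CPM in CD34lo fibroblasts, with overlapping groups (log2 fold change -0.35, adjusted p = 0.429). Its transcript is 98.3% identical over 409 bases to that of the copy *Gm6166*, so reads could be split between them. Per length, *Fabp4* was at 11.4 to 16.3 times the level of *Fabp5* in CD34hi libraries and at 47.0 to 102 times in CD34lo libraries.

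None of the 6 genes of fatty acid synthesis and activation passed the threshold, with 4 log2 fold changes below zero, those of *Scd1* and *Scd2* above it and a median of -0.16. Of all 15219 genes tested, 9808 did not pass. Calls depended on the setting for *Acaca* (adjusted p = 0.0323 with upper-quartile scaling), *Scd1* (0.0343 without CD34hi library 3), *Scd2* (0.0408 without pool 3) and *Acsl1* (0.0233 without CD34lo library 2). *Acaca*, encoding the acetyl-CoA carboxylase that commits carbon to fatty acid synthesis, was at 41.5 to 46.4 CPM in CD34hi and at 50.6 to 56.9 CPM in CD34lo fibroblasts. The groups did not overlap, with a log2 fold change of -0.29 (SE 0.11, adjusted p = 0.0651), and *Acaca* shares 99.2% identity over 6118 bases with the copy *Gm5182*. *Fasn*, the fatty acid synthase, was at 117 to 140 CPM in CD34hi and at 134 to 165 CPM in CD34lo fibroblasts (log2 fold change -0.26, adjusted p = 0.15). *Scd1*, the stearoyl-CoA desaturase that makes monounsaturated fatty acids, was at 259, 251 and 193 CPM in CD34hi and at 202, 187 and 150 CPM in CD34lo fibroblasts. The CD34hi library was the higher one in all 3 pools although the groups overlapped, and the log2 fold change was 0.38 (SE 0.16, adjusted p = 0.102). With the pool as a block the same log2 fold change of *Scd1* passed the threshold (adjusted p = 0.0256).

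*Scd2*, the related desaturase, was at 213 to 285 CPM in CD34hi and at 183 to 220 CPM in CD34lo fibroblasts, with a log2 fold change of 0.31 (adjusted p = 0.134). Transcripts of *Scd1* and *Scd2* share a stretch of 623 bases at 95.5% identity. *Acsl1*, which activates long-chain fatty acids to their CoA esters, was at 5.47 to 8.14 CPM in CD34hi and at 7.70 to 12.8 CPM in CD34lo fibroblasts (log2 fold change -0.58, SE 0.23, adjusted p = 0.0834). *Gpd1*, which supplies glycerol 3-phosphate for triglyceride, was at 1.28 to 2.06 CPM in CD34hi and at 1.06 to 2.16 CPM in CD34lo fibroblasts, with a log2 fold change of -0.06 (SE 0.34, adjusted p = 0.916). Levels of *Gpd1* thus overlapped between the populations.

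Triglyceride synthesis and lipolysis genes did not pass the threshold either, for 4 of 4, where 9808 of all 15219 genes tested did not pass. The acyltransferase *Dgat1*, which adds the last fatty acid to triglyceride, had a log2 fold change of -0.21 (SE 0.15, adjusted p = 0.301) and lay at 16.0 to 17.7 CPM in CD34hi and at 16.7 to 23.1 CPM in CD34lo fibroblasts. For *Dgat2*, which catalyses the same step, the log2 fold change was 0.16 (SE 0.22, adjusted p = 0.624), with 7.03 to 10.7 CPM in CD34hi and 6.85 to 10.5 CPM in CD34lo fibroblasts. The lipase *Pnpla2*, which removes the first fatty acid from triglyceride, was at 17.3 to 21.2 CPM in CD34hi and at 19.5 to 22.7 CPM in CD34lo fibroblasts (log2 fold change -0.14, SE 0.13, adjusted p = 0.433). All 3 had overlapping groups. *Lipe*, the hormone-sensitive lipase that acts next, was at 2.44, 3.45 and 4.87 CPM in CD34hi and at 5.04, 5.43 and 5.18 CPM in CD34lo fibroblasts. The CD34lo libraries were close together and above all CD34hi libraries, which varied more (log2 fold change -0.54, SE 0.26, adjusted p = 0.139). Without CD34hi library 3 the difference of *Lipe* passed the threshold (log2 fold change -0.82, adjusted p = 0.0284), and exons of *Lipe* overlap 918 bases of *4732471J01Rik*, which held 47 counts against 1040.

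**Figure D3:**
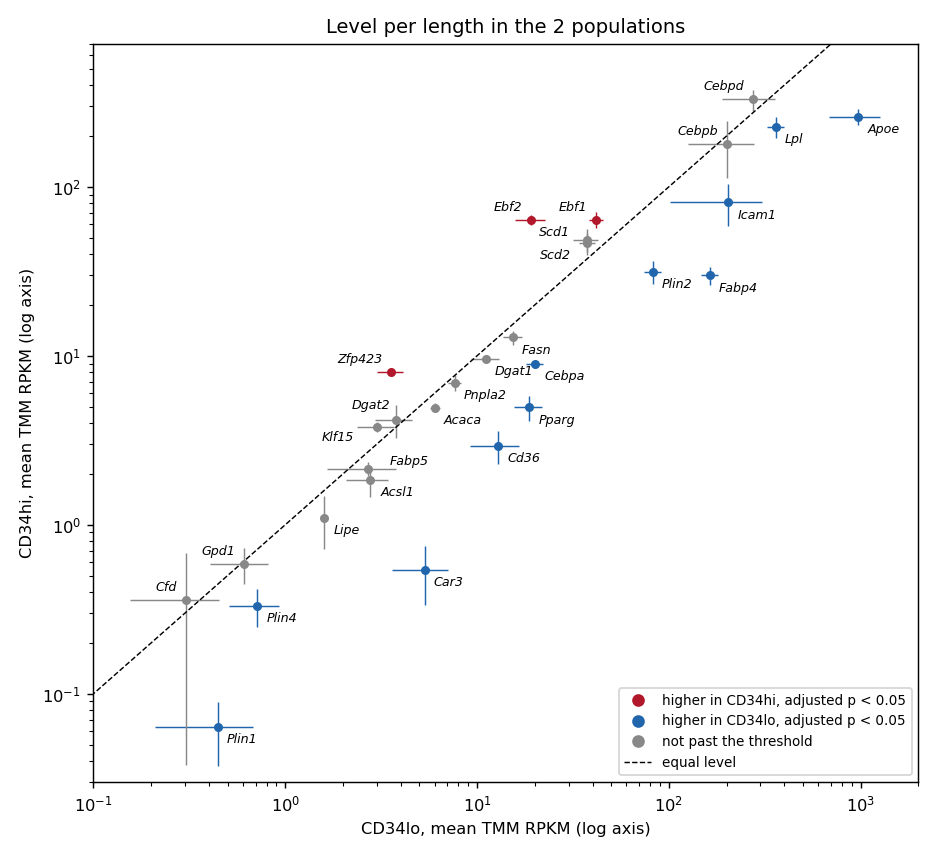
Mean level per length (RPKM with TMM-scaled library sizes) in CD34lo fibroblasts (horizontal, logarithmic) against CD34hi fibroblasts (vertical, logarithmic) for the 29 genes tested, with bars of 1 SD over 3 libraries and a dashed line of equal level. *Apoe* and *Lpl* lie among the highest levels and below the line, *Ebf1* and *Ebf2* lie above it, and *Plin1*, *Plin4* and *Cfd* lie at the low end in both populations.

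Levels per length ranged widely among the genes. In CD34lo fibroblasts *Apoe* was highest at 971 ± 290 RPKM (SD, n = 3), followed by *Lpl* at 361 ± 36.5 RPKM, *Cebpd* at 275 ± 84.4, *Icam1* at 204 ± 103 and *Cebpb* at 202 ± 75.8 RPKM. The ranges of 1 SD of *Lpl* and *Cebpd* overlapped, and those of the last 3 overlapped one another. In CD34hi fibroblasts *Cebpd* was highest at 329 ± 47.4 RPKM, followed by *Apoe* at 260 ± 26.8 and *Lpl* at 226 ± 32.4 RPKM, with ranges of 1 SD that overlapped between neighbours, and in pool 3 *Apoe* (291 RPKM) was above *Cebpd* (283 RPKM). *Fabp4* was at 164 ± 17.1 RPKM in CD34lo and at 29.9 ± 3.80 RPKM in CD34hi fibroblasts. *Pparg* was at 18.7 ± 3.03 RPKM in CD34lo and at 4.96 ± 0.837 RPKM in CD34hi fibroblasts, below the early factors *Cebpb* and *Cebpd* in both.

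Of the lipid droplet coat genes, the perilipins *Plin1*, *Plin2* and *Plin4* were higher in CD34lo fibroblasts. A further perilipin from the lipid handling list, *Plin3*, named after its values were seen, went the other way, at 72.4, 79.8 and 94.7 CPM in CD34hi and 39.7, 42.2 and 51.3 CPM in CD34lo fibroblasts (log2 fold change 0.89, adjusted p = 0.00159). *Plin2* (chr4:86656565-86670059, minus strand), the perilipin present in many cell types that store some lipid, was at 53.0, 54.9 and 70.0 CPM in CD34hi and at 169, 139 and 160 CPM in CD34lo fibroblasts. The populations did not overlap (log2 fold change -1.39, SE 0.14, adjusted p = 1.27e-04). *Plin4*, found in adipocytes, was at 1.72, 1.55 and 2.45 CPM in CD34hi and at 3.14, 5.47 and 3.76 CPM in CD34lo fibroblasts. The groups did not overlap, and CD34lo pool 2 was highest (log2 fold change -1.10, SE 0.29, adjusted p = 0.0172). *Plin4* shares 17 exonic bases with *Hdgfl2* on the opposite strand, which had 8457 counts against its 683.

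*Plin1*, the perilipin of mature adipocytes, held 3, 6 and 6 counts in the CD34hi libraries and 67, 27 and 11 counts in the CD34lo libraries. Each CD34lo library was above each CD34hi library, but CD34hi library 1 was at the floor of 3 counts (log2 fold change -2.82, SE 0.60, adjusted p = 0.00655). *Cidec*, which fuses lipid droplets in white adipocytes, had 1, 7 and 3 counts in CD34hi and 11, 4 and 2 counts in CD34lo libraries and could not be tested. The *Plin1* call was lost without pool 1 (log2 fold change -2.10, adjusted p = 0.0818). The *Plin4* call was lost without pool 2 (log2 fold change -0.72, adjusted p = 0.163), without pool 1 (adjusted p = 0.0558), without CD34hi library 1 (adjusted p = 0.0669) or 2 (adjusted p = 0.0695) and without CD34lo library 2 (log2 fold change -0.85, with an adjusted p just above 0.05).

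**Figure D4:**
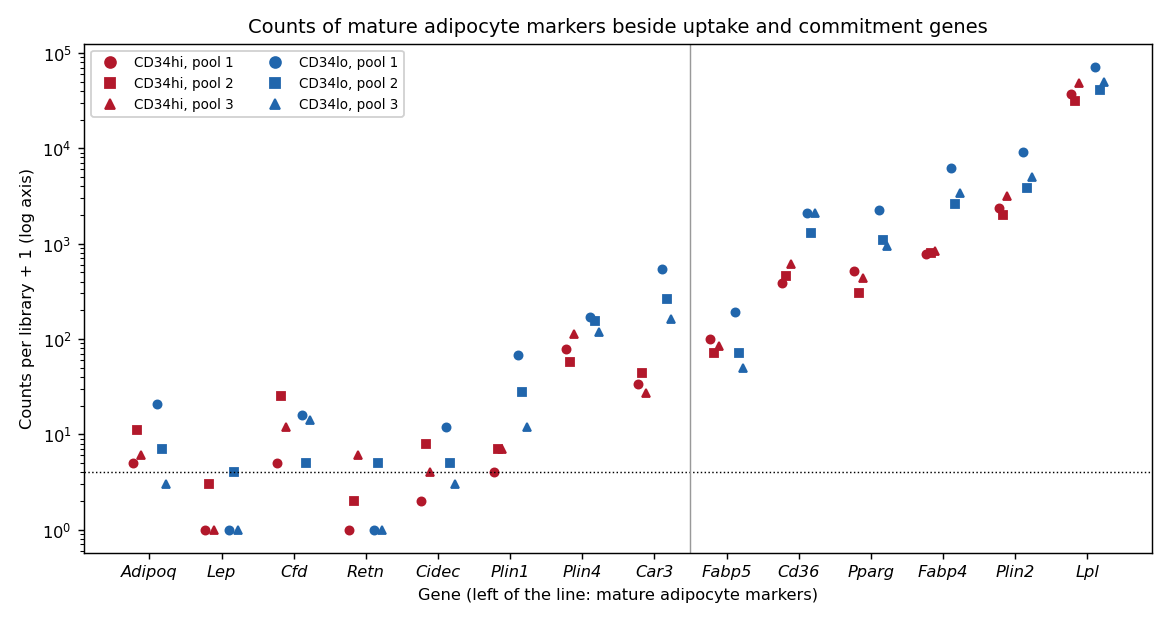
Counts per library plus 1 (logarithmic vertical axis) of the 8 mature adipocyte markers (left of the vertical line) and of 6 further genes of uptake, commitment and droplet coat (right), with 3 CD34hi (red) and 3 CD34lo (blue) libraries and 1 symbol per pool. The dotted line is the floor of 3 counts. *Adipoq*, *Lep*, *Retn* and *Cidec* stay at or below 20 counts in every library, whereas *Fabp4* holds 778 to 6179 and *Lpl* at least 30907 counts.

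Products of mature adipocytes were near the floor in both populations, with the exception of *Car3*. Adiponectin (*Adipoq*), which is among the most abundant adipocyte transcripts, had 4, 10 and 5 counts in CD34hi and 20, 6 and 2 counts in CD34lo libraries. Leptin (*Lep*), the satiety hormone of fat, had 0, 2 and 0 counts in CD34hi and 0, 3 and 0 counts in CD34lo libraries, so that 4 of 6 libraries held none. Resistin (*Retn*) had 0, 1 and 5 counts in CD34hi and 0, 4 and 0 counts in CD34lo libraries. Adipsin (*Cfd*), a serine protease secreted by fat, had 4, 24 and 11 counts in CD34hi and 15, 4 and 13 counts in CD34lo libraries. Counts of *Cfd* were highest in CD34hi pool 2, with overlapping groups (log2 fold change 0.20, SE 0.73, adjusted p = 0.858), and the direction turned with the tool and with single libraries.

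*Car3* (chr3:14863538-14872381, plus strand), a carbonic anhydrase abundant in adipocytes and in muscle, was the exception. It held 33, 43 and 26 counts in CD34hi libraries (0.738, 1.19 and 0.573 CPM) and 540, 263 and 161 counts in CD34lo libraries (9.96, 9.46 and 5.18 CPM). The groups were far apart and its log2 fold change was the most negative of the 29 genes, at -3.31 (SE 0.36, adjusted p = 1.53e-04).

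The mature adipocyte genes also served as a check for RNA carried over from adipocytes. The sum of the 8 markers *Adipoq*, *Lep*, *Cfd*, *Retn*, *Car3*, *Plin1*, *Plin4* and *Cidec* was 2.73 to 4.11 CPM in CD34hi and 9.84 to 16.7 CPM in CD34lo libraries. The exact two-sided permutation test gave p = 0.1, the smallest value that 3 libraries against 3 allow. Without *Car3* the sum was 1.99 to 3.11 CPM in CD34hi and 4.66 to 7.19 CPM in CD34lo libraries. A further 8 markers (*Adrb3*, *Cidea*, *Thrsp*, *Slc2a4*, *Aqp7*, *Pck1*, *Adig* and *Acvr1c*) summed to 0.693 to 1.44 CPM in CD34hi and to 2.09 to 2.84 CPM in CD34lo libraries (exact permutation p = 0.1). Of these, the β3-adrenergic receptor *Adrb3* and the droplet protein *Cidea* were near 0, at no more than 0.184 and 0.0321 CPM in any library. The insulin-responsive glucose transporter *Slc2a4*, named after its values were seen, was higher in CD34lo fibroblasts (log2 fold change -3.52, SE 0.49, adjusted p = 6.89e-04). It held 7, 2 and 8 counts in the CD34hi libraries and passed the filter through its CD34lo libraries alone, so this call was partly fixed by the filter. In the CD34lo libraries *Slc2a4* made up most of the sum of the further markers (1.09 to 2.09 CPM). Each of the other further markers overlapped between the populations. The first marker sum, which contains *Plin1* and *Plin4*, was higher in CD34lo fibroblasts like *Pparg*, *Fabp4* and *Plin2*. The sum of the further markers was also higher there, but this rested on *Slc2a4*. The part of carried-over RNA in the differences of *Pparg*, *Fabp4* and *Plin2* was not tested.

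Markers of other cell types were measured beside these genes, because *Cd36*, *Fabp4*, *Lpl* and *Apoe* are also expressed by endothelial cells or macrophages. Of 7 endothelial markers, *Pecam1* (log2 fold change -1.14), *Cdh5* (-1.29) and *Emcn* (-1.33, named after its values were seen) were higher in CD34lo fibroblasts, *Kdr* was higher in CD34hi fibroblasts (3.14) and *Gpihbp1*, which anchors lipoprotein lipase on capillaries, did not pass (-0.50, adjusted p = 0.433). *Vwf* (-1.20, adjusted p = 0.0713) and *Tie1* (-1.05, adjusted p = 0.0537), named after their values were seen, passed with the pool as a block (adjusted p = 0.00545 and 0.00795). With the block 5 of the 7 were higher in CD34lo fibroblasts, as were 3181 of all 15219 genes tested. The sum of the 7 markers was 53.9 to 98.4 CPM in CD34hi and 37.9 to 64.6 CPM in CD34lo libraries, and without *Kdr* it was 9.84 to 27.5 and 33.3 to 59.2 CPM. The 8 macrophage markers summed to 3.44 to 3.59 CPM in CD34hi and to 28.6 to 49.8 CPM in CD34lo libraries, and *Fcgr2b* made up most of the CD34lo sums (23.6 to 43.4 CPM, log2 fold change -6.08, adjusted p = 5.01e-05). Without *Fcgr2b* the sums were 2.35 to 3.33 and 5.03 to 6.38 CPM, without overlap. Of the other markers, named after their values were seen, *Cd68* (log2 fold change -0.71, adjusted p = 0.0563, groups apart) and *Csf1r* (-0.96, adjusted p = 0.115) did not pass, *C1qa* held 2, 6 and 9 counts in CD34hi and 48, 2 and 50 counts in CD34lo libraries, and *Adgre1* held at most 2 counts in any library. Both reduced sums were chosen after the values were seen, and the part of these cells in the differences of the uptake genes was not tested. Epithelial markers (34.2 to 38.4 CPM in CD34hi, 32.6 to 41.5 in CD34lo) and the sum of 5 pericyte markers (134 to 190 and 141 to 219 CPM) overlapped between the populations. Of the epithelial markers only the integrin *Itga6* passed the threshold, and it was higher in CD34lo fibroblasts (log2 fold change -1.26, adjusted p = 0.00817). The largest part of the pericyte sum was *Abcc9*, named after its values were seen (100 to 146 CPM in CD34hi, 63.5 to 151 CPM in CD34lo). In CD34lo pool 1 it was at 63.5 CPM and *Notch3* at 56.1 CPM. *Notch3* (log2 fold change -3.28), *Mcam* (-2.44) and *Rgs5* (-1.46, named after its values were seen) were higher in CD34lo and *Kcnj8* (1.39) in CD34hi fibroblasts. The part of pericytes in the differences was not tested. Muscle markers summed to 1.27 to 1.57 and 3.50 to 3.88 CPM, Schwann cell markers to 37.3 to 47.7 and 13.6 to 16.5 CPM, and keratinocyte markers to 14.3 to 19.9 and 3.60 to 7.12 CPM. Among these, *Mbp* (log2 fold change 1.88) and *Krt10* (0.77) were higher in CD34hi fibroblasts. Of the muscle markers, named after their values were seen, *Des* was higher in CD34lo fibroblasts (log2 fold change -1.58, adjusted p = 0.00185). *Acta1* did not pass (-0.20, adjusted p = 0.816), and *Myf5* and *Myog* were not tested. The part of muscle cells in the difference of *Car3* was not tested.

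Further genes of the pathway, taken from 3 lists, showed both directions. Of 19 other regulators of adipogenesis, all tested, 4 were higher in CD34lo and 3 in CD34hi fibroblasts, with a median log2 fold change of -0.07. This list was not limited to genes that promote adipogenesis. The share called was 36.8%, near the 35.6% of all genes tested. The nuclear receptor *Nr2f2* (-3.16, SE 0.19), the Krüppel-like factor *Klf5* (-2.88, SE 0.24) and the liver X receptor *Nr1h3* (-1.40, SE 0.14) were higher in CD34lo fibroblasts. *Foxo1* (1.10, SE 0.13), *Creb1* (0.52, SE 0.15) and *Srebf1* (0.48, SE 0.11), the last encoding the factor that drives fatty acid synthesis genes, were higher in CD34hi fibroblasts. *Srebf1* was at 87.2, 87.8 and 75.7 CPM in CD34hi and at 58.7, 64.6 and 56.9 CPM in CD34lo fibroblasts, without overlap, opposite to *Pparg* and *Cebpa*.

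Of 13 genes known to restrain adipogenesis, 6 were higher in CD34lo and 1 in CD34hi fibroblasts, where 18.7% and 16.9% of all genes tested were called in these directions, and the median log2 fold change was -0.57. *F3* (-3.51, SE 0.16), which encodes tissue factor (CD142), *Clec11a* (-2.90, SE 0.16) and *Gdf10* (-2.81, SE 0.18) were higher in CD34lo fibroblasts. *Dlk1*, the preadipocyte factor Pref-1 that is lost on differentiation, was low in both populations, at 0.268, 0.635 and 0.551 CPM in CD34hi and at 5.13, 5.47 and 4.56 CPM in CD34lo fibroblasts. All CD34lo libraries were above all CD34hi libraries (log2 fold change -3.39, SE 0.32, adjusted p = 8.05e-05). The repressor *Klf3* was higher in CD34hi fibroblasts (1.80, SE 0.17).

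Of 30 genes of lipid handling, 27 were tested, and 9 were higher in CD34lo and 6 in CD34hi fibroblasts, with a median of 0.02. The share called was 55.6%, compared with 35.6% of all genes tested. Higher in CD34lo fibroblasts were the acetyl-CoA carboxylase of mitochondria *Acacb* (-1.94, SE 0.37), the lipoprotein lipase inhibitor *Angptl4* (-1.70, SE 0.40) and the droplet protein *Hilpda* (-1.50, SE 0.15). Higher in CD34hi fibroblasts were *Mgll*, the lipase for monoglycerides (3.58, SE 0.21, adjusted p = 6.92e-06), *Me1*, the malic enzyme that supplies NADPH (1.19, SE 0.18), and *Abhd5*, which activates the lipase encoded by *Pnpla2* (1.10, SE 0.12). *Mgll* was at 108, 129 and 124 CPM in CD34hi and at 7.30, 12.8 and 10.1 CPM in CD34lo fibroblasts, and all CD34hi libraries stood far above the CD34lo libraries.

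**Figure D5:**
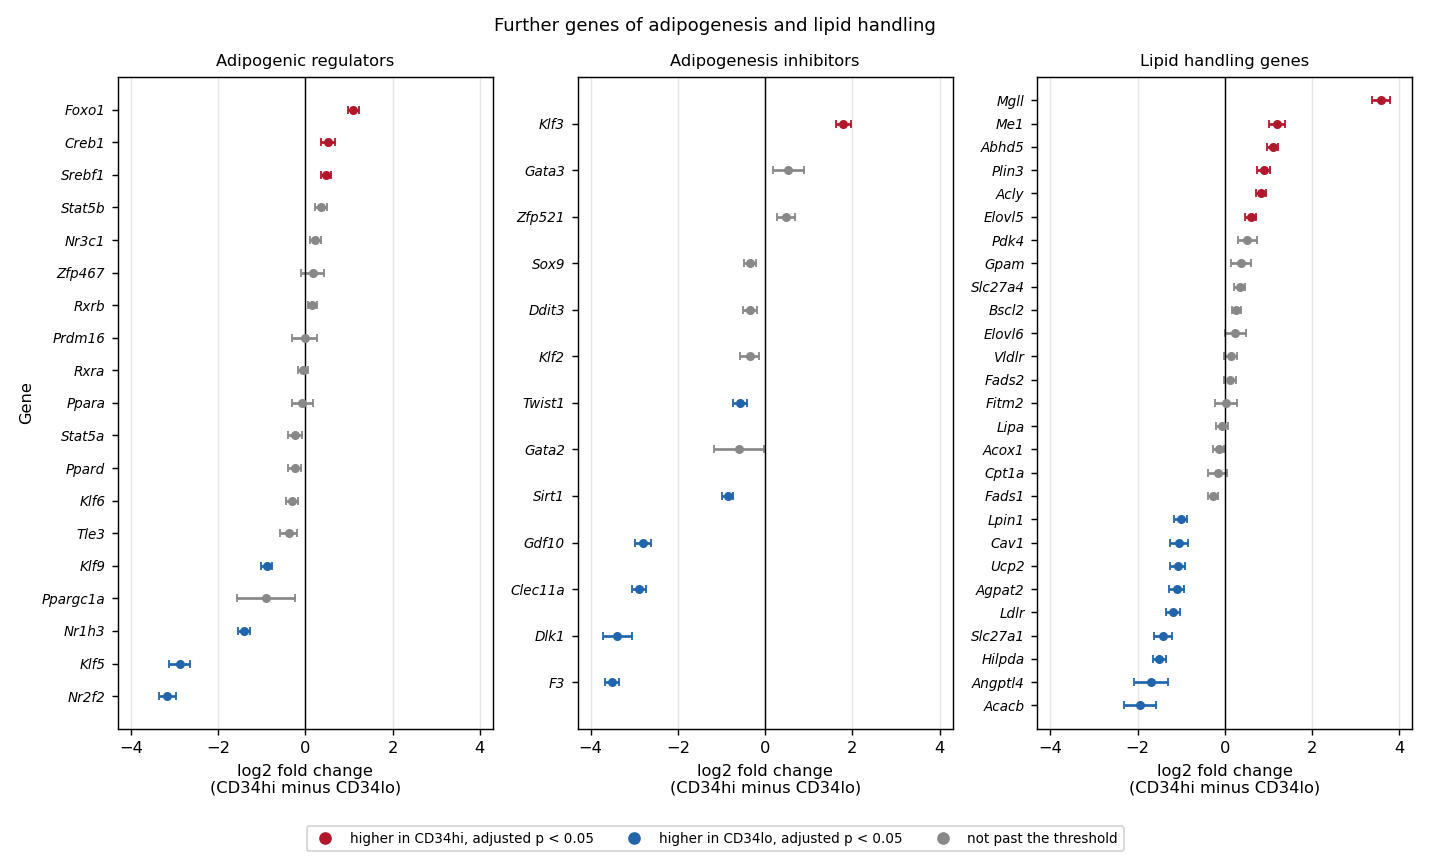
Log2 fold change (CD34hi minus CD34lo, horizontal axis) with SE of the tested genes of 3 further lists, with genes on the vertical axis. Red is higher in CD34hi, blue is higher in CD34lo and grey did not pass the threshold. *Nr2f2*, *Klf5*, *F3* and *Dlk1* lie left of -2, and *Mgll* lies right of 3.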

How the data were processed

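Counts per gene were deposited by the authors for 3 CD34hi and 3 CD34lo libraries, without normalization. Per the study's methods, TruSeq RNA v2 libraries were aligned to GRCm38/mm10 and counted with Rsubread. The annotation, the strand setting and the treatment of reads with several matches are not given in the sources used here, and the kit does not mark strand. Gene lengths and coordinates are those of the deposited table (GRCm38/mm10). Symbols were matched for 25275 of 27179 identifiers.

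Differential expression was tested with edgeR 4.0.16 in R 4.3.3 (filterByExpr by population, TMM, quasi-likelihood test, Benjamini-Hochberg over 15219 genes, threshold 0.05). Log2 CPM used a prior count of 2. Alternatives used limma 3.58.1 (voom) and DESeq2 1.42.0, other scalings and filters, the pool as a block, and each pool or library left out. The common coefficient of variation between libraries was 19.7%, and 14.9% with the block. Same-numbered libraries came from the same mice, and their deviations from the population means correlated across genes (r = 0.280, 0.0840 and 0.243 for pools 1, 2 and 3).

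The genes and lists were chosen with earlier results of these data known. All 33 genes are named, and of the other lists the 3 that changed most in each direction among genes past the threshold with a mean log2 CPM of at least 1, plus *Dlk1*, *Srebf1*, *Adrb3*, *Cidea* and *Gpihbp1*. Other genes of these lists are marked as named after their values were seen, or are given as parts of a marker sum.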

Additional observations from a re-analysis of the deposited data

How the results depend on the processing

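The number of the 33 genes past the threshold was 11 to 17 over all alternatives, against 14. Over all genes tested it was 5411, and it was 3468 to 5236 when a pool or a library was left out (3468 without pool 1), 3444 at an adjusted p-value under 0.01 and 2986 with a log2 fold change of at least 1 in either direction, and it rose to 5815 with DESeq2, 6161 with the replicate block in edgeR and 6418 with the block in limma-voom. The 3 further lists held 29 called genes, and 21 to 35 over the alternatives. With the replicate block, edgeR called 15 of the 33 genes, adding *Scd1* (0.38, adjusted p = 0.0256), and changed no other call among them, while 34 genes of the further lists and 6161 of all 15219 genes tested passed. Among 491 refits of the 29 genes, 456 kept direction and side of the threshold, 10 lost a call (*Lpl*, *Plin1* and *Plin4*), 12 gained a call (*Scd1*, *Scd2*, *Acaca*, *Acsl1* and *Lipe*) and 13 turned direction. The log2 fold change of *Cebpb* ranged from -0.42 to 0.15 with a pool or library left out, that of *Fabp5* from -0.60 to 0.0096, that of *Gpd1* from -0.29 to 0.17 and that of *Cfd* from -1.02 to 0.72. *Cfd* was also negative with limma-voom (-0.15), with the replicate block in edgeR (-0.074) and with the block in limma-voom (-0.035). The log2 difference of the summed endothelial markers was 0.54, and -1.26 without *Kdr*, the marker of that list with the highest level in CD34hi fibroblasts. The cause of the other changes was not tested. Upper-quartile scaling moved the median of all genes to -0.059 and the share of calls that were higher in CD34hi fibroblasts from 47.5% to 42.2%. Genes with under 10 counts in a library (*Plin1*, *Cfd*) gave no value under the stricter filter, and *Cidec*, *Adipoq*, *Lep* and *Retn* (5 to 47 counts in all) were too shallow to test. Without the filter none of these 4 passed (adjusted p from 0.695 to 0.947).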
